A study of Mus musculus with 2 samples.

Results

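Syndecans and glypicans are the main families of cell-surface heparan sulfate proteoglycans, and the 10 genes that encode them (*Sdc1* to *Sdc4* and *Gpc1* to *Gpc6*) were examined in primary chondrocytes. They were chosen by symbol from the 22156 genes of the deposited table, and each symbol matched 1 row. The table holds 1 library per genotype, control and *Myl3*-KO, of cells grown in monolayer. The labels give rib cartilage as the tissue, whereas the methods name rib and articular cartilage of newborn mice. In *Myl3*-KO mice, Cre driven by the *Col2a1* promoter deletes a floxed *Myl3*, which encodes a myosin light chain. According to the methods, the control littermates carry the floxed alleles without Cre and all mice were on a C57BL/6 J background, whereas the sample label of the control reads WT. Neither source says how many animals gave each library. The comparison asks how the RNA of chondrocytes differs when *Myl3* is deleted, and with 1 library per genotype no difference below has a replicate check.

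Each of these proteoglycans is a core protein that carries long heparan sulfate chains, which bind growth factors, morphogens and matrix proteins at the cell surface. Syndecans cross the membrane and end in a short cytoplasmic tail that binds PDZ proteins and signals to the cytoskeleton, whereas glypicans are held in the outer leaflet by a glycosylphosphatidylinositol (GPI) anchor. In cartilage these proteins are known as modulators of FGF, hedgehog, Wnt and BMP signals, and syndecan-4 is known for its part in cartilage breakdown in osteoarthritis.

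The end of the tail is shown because the 4 syndecans share a binding site there. The last 39 bases of the longest coding sequence of each gene in GENCODE M21 are given, with the final 4 codons and the stop codon in capitals.
Sdc1: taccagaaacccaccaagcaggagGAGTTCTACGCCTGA
Sdc2: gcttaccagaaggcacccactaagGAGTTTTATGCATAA
Sdc3: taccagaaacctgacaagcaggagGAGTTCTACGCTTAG
Sdc4: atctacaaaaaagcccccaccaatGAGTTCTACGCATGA
The final 4 codons spell the site that PDZ proteins such as syntenin bind. *Sdc1* and *Sdc3* had 33 of the 39 bases in common and *Sdc2* and *Sdc4* 27, while the other pairs had 16 to 22. Bases were compared position by position from the end without gaps, so an offset between 2 sequences lowers the number. The coding sequences run from 597 to 1329 bases in the syndecans and from 1674 to 1938 in the glypicans. Serine codons followed directly by a glycine codon, the pair at which such chains can attach, numbered from 2 in *Gpc3* to 8 in *Sdc3*. Despite this likeness, none of the 31-base words in the transcripts of any of the 10 genes occurred in another of them (0%), so reads of that length or more could be assigned to single members.

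The depth was 17612434.91 expected counts (estimated reads per gene) for the control and 13477976.98 for *Myl3*-KO. Levels are given as FPKM, in which reads are divided by gene length and by depth, so that genes can be compared with each other. Differences between the libraries are given as the log2 ratio of CPM, which is counts scaled to the library total, *Myl3*-KO over control. Intervals are 95% intervals of the counts and cover counting error only, not the difference between cultures. A gene is said to differ beyond counting error where its interval leaves out 0, which says that these libraries differ and nothing of the genotypes. Values given in pairs are the control first and *Myl3*-KO second. In cultures measured in bulk, fewer cells of a type and less RNA per cell cannot be told apart.

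*Myl3*, the deleted gene, was at 0 counts in either library and could not check the labels. The labelled cell type was checked next. *Acan*, *Matn1*, *Matn3*, *Hapln1* and *Cnmd*, which encode cartilage matrix proteins, were at 0 counts throughout. *Col2a1*, the type II collagen gene, had 30 and 27 counts and was within counting error (log2 ratio of CPM 0.23). *Sox9*, the chondrocyte transcription factor, had 866 and 480 and was lower (-0.47), whereas *Col11a2*, which encodes a chain of the cartilage type XI collagen, had 293 and 395 and was higher (0.82). The 10 chondrocyte markers together summed to 67.6 and 67.1 CPM, against 15410 and 17514 CPM for the 8 fibroblast and perichondrium markers. Of the latter sum, *Col1a2*, a type I collagen gene, gave 12017 and 14039 CPM, while *Thy1* was at 0 counts in both libraries, *Dpt* had 5 and 2 counts and *Pi16* 1 and 0. The cells are therefore called by their label only. Summed levels of the other marker lists lay between 0.148 and 21.7 CPM in either library. The largest of these was the list of skeletal muscle and satellite cells, at 4.60 and 21.7 CPM, of which most was *Cdh15* (73 and 290 counts). *Pax7*, *Myf5*, *Myod1* and *Myog*, which define that lineage, were at 0 counts in both libraries. The part of the cell makeup in the values below was not tested.

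Of the 10 members, 8 were detected in both libraries, each with at least 331 counts over the pair, and 2 were not detected in either. The syndecans were the more abundant family and took 80.8% of the summed FPKM of all members in the control and 77.4% in the other library. *Sdc3* (ENSMUSG00000025743, chromosome 4 of GRCm38 from 130792537 to 130826319), known from the nervous system and from immature cartilage, had 66.7 and 64.5 FPKM. *Sdc2* (ENSMUSG00000022261, chromosome 15 from 32920723 to 33034935), the syndecan typical of mesenchymal cells, had 64.2 and 69.8 FPKM. *Sdc1* (ENSMUSG00000020592, chromosome 12 from 8771323 to 8793715), known best from epithelia and plasma cells, had 36.8 and 37.3 FPKM, and *Sdc4* (ENSMUSG00000017009, chromosome 2 from 164424247 to 164443887), which is widely expressed and found at focal adhesions, 18.8 and 16.7.
In the control, *Sdc3* and *Sdc2* lay above 89.6% or more of the 12431 genes tested, which are those with 10 or more counts in the 2 libraries together, *Sdc1* above 80.3% and *Sdc4* above 63.3%. The deposited table annotates the 4 syndecans to cell adhesion molecules, and *Sdc1* and *Sdc4* also to ECM-receptor interaction. For *Sdc1*, the summed markers of epithelial cells (at most 0.681 CPM) and of plasma and B cells (at most 0.454 CPM) were near 0 in both libraries.

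The glypicans were lower in level than *Sdc1*, *Sdc2* and *Sdc3* in both libraries. *Gpc4* (ENSMUSG00000031119, chromosome X from 52053021 to 52165252), annotated to Wnt signaling in the deposited table, had 14.8 and 18.5 FPKM. *Gpc2* (ENSMUSG00000029510, chromosome 5 from 138273655 to 138280005), also called cerebroglycan and described first in developing neurons, had 13.1 and 21.5 FPKM. *Gpc1* (ENSMUSG00000034220, chromosome 1 from 92831645 to 92860779), a widely expressed binder of FGF2, had 12.9 and 11.6 FPKM, and *Gpc6* (ENSMUSG00000058571, chromosome 14 from 116925315 to 117976544), whose human counterpart is mutated in a skeletal dysplasia, 3.69 and 3.33.
*Gpc3* (ENSMUSG00000055653, chromosome X from 52272426 to 52613950), whose loss causes an overgrowth syndrome in humans, and *Gpc5* (ENSMUSG00000022112, chromosome 14 from 115092215 to 116525179) were at 0 counts in either library. A count of 0 allows up to 3 counts, which is 0.170 CPM for the control and 0.223 for *Myl3*-KO. Both undetected genes are next to a detected member in the genome. Both X-linked genes lie on the minus strand, and the downstream end of *Gpc3* is 107.2 kb from the start of *Gpc4*, while *Gpc5* ends 400.1 kb before *Gpc6*.

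**Figure D1:**
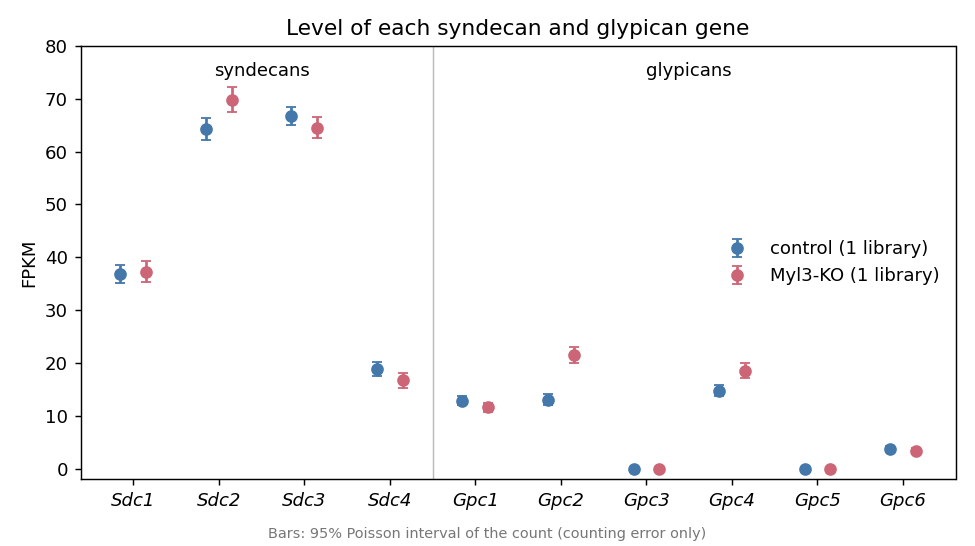
FPKM of each member in the control (blue) and *Myl3*-KO (red) libraries, with 95% Poisson intervals of the count scaled to FPKM. *Sdc2* and *Sdc3* are at 64.2 FPKM or more, *Gpc2* stands at 13.1 (control) and 21.5 (*Myl3*-KO), and *Gpc3* and *Gpc5* are at 0.

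The order of levels differed between the libraries in the middle of the range. In the control it ran *Sdc3*, *Sdc2*, *Sdc1*, *Sdc4*, *Gpc4*, *Gpc2*, *Gpc1* and *Gpc6*. There the intervals of *Sdc3* and *Sdc2* overlapped, as did those of *Gpc4*, *Gpc2* and *Gpc1* with each other. In *Myl3*-KO the order ran *Sdc2*, *Sdc3*, *Sdc1*, *Gpc2*, *Gpc4*, *Sdc4*, *Gpc1* and *Gpc6*, and the intervals of *Gpc4* and *Sdc4* overlapped. *Gpc2* thus went from place 6 to place 4. In the control its interval of 12.1 to 14.2 FPKM lay below that of *Sdc4* (17.5 to 20.1), and in *Myl3*-KO its interval of 20.0 to 23.1 lay above that of *Sdc4* (15.4 to 18.2). *Sdc2* passed *Sdc3* in *Myl3*-KO, where their intervals of 67.4 to 72.2 and 62.6 to 66.5 FPKM were apart.

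Between the libraries, 3 members were higher in *Myl3*-KO beyond counting error (*Gpc2*, *Gpc4* and *Sdc2*) and 2 were lower (*Sdc4* and *Gpc1*). Over all 12431 genes tested, 22.2% were higher and 20.1% were lower by the same rule, so calls by this rule were common among genes in general. These shares include genes with as few as 10 counts, which are harder to call, whereas the detected members had at least 331. By this rule no share was taken at matched counts. *Gpc2* alone was at least 1.5-fold higher, and 0 members were at least 1.5-fold lower. Of all genes tested, 6.17% were at least 1.5-fold higher and 2.90% at least 1.5-fold lower. Since folds spread more widely in genes with few counts, the same shares were taken over the 10485 genes with at least 100 counts, a limit set after the data were seen, and were 2.41% and 0.773%.

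*Gpc2* had 596 and 750 counts, although the *Myl3*-KO library was the smaller one. This is 33.8 CPM against 55.6, a ratio of 1.64 and a log2 ratio of 0.72 (95% interval 0.56 to 0.88). Only 4.22% of all genes tested had a higher ratio. The deposited FPKM values gave the same log2 ratio of 0.72. An exact test in edgeR, with a coefficient of variation between cultures set to 0.1 because it cannot be estimated here, gave p = 0.00113 without adjustment, and with 0.2 it gave p = 0.0882. In GENCODE M21 the locus is overlapped by *Gm43720*, a read-through gene model on the same strand that reaches to *Gal3st4* and holds 52.0% of the 31-base words of *Gpc2*. *Gm43720* is no row of the table. *Gal3st4*, at the other end of that model, had 5 and 2 counts. Next to it *BC037034*, on the same strand, had 339 and 321 counts and was also higher beyond counting error (log2 ratio 0.31, 95% interval 0.08 to 0.53), and *Lamtor4* had 659 and 475 (-0.09, interval -0.26 to 0.09). *Stag3*, which starts 235 bases away on the other strand, had 45 and 43 counts (log2 ratio 0.32, 95% interval -0.32 to 0.96).

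*Gpc4* was the other glypican that was higher in *Myl3*-KO. It had 690 and 660 counts, or 39.2 and 49.0 CPM (log2 ratio 0.32, 95% interval 0.17 to 0.48). No other gene of the annotation overlaps it, and none of its 31-base words occurred in another gene. With a preset coefficient of variation of 0.1 its exact p in edgeR was 0.144.

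*Gpc1* had 949 and 653 counts, or 53.9 and 48.4 CPM (log2 ratio -0.15, 95% interval -0.30 to -0.01). *Ankmy1*, which overlaps it on the other strand and holds 18.4% of its 31-base words, had 2 counts and 1 count. For the members other than *Gpc1* and *Gpc2*, at most 6.30% of the words occurred in another gene. *Gpc6* was the least abundant of the detected members, with 202 and 129 counts, or 11.5 and 9.57 CPM, and its log2 ratio of -0.26 was within counting error (95% interval -0.59 to 0.06). The glypicans therefore lay on either side of the median of all genes tested, which was 0.02. Their own median was 0.08 over the 4 that could be tested, between -0.26 and 0.72.

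Among the syndecans, 1 was higher and 1 lower beyond counting error. *Sdc2* had 3991 and 3316 counts, or 226.6 and 246.0 CPM (log2 ratio 0.12, 95% interval 0.05 to 0.19). *Sdc4* had 814 and 554 counts, or 46.2 and 41.1 CPM (log2 ratio -0.17, 95% interval -0.33 to -0.01). *Sdc3* had 5845 and 4324 counts, or 331.9 and 320.8 CPM, and its log2 ratio of -0.05 (95% interval -0.11 to 0.01) was within counting error. When the libraries were scaled by TMM factors instead of their totals, it was -0.08 and beyond counting error. *Sdc1* had 1801 and 1376 counts, or 102.3 and 102.1 CPM, a log2 ratio of -0.00 (95% interval -0.10 to 0.10). As a ratio, the interval of *Sdc1* ran from 0.93 to 1.07, which covers counting error only and sets no limit on a difference between cultures. The median of the 4 syndecans was -0.03, between -0.17 and 0.12.

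**Figure D2:**
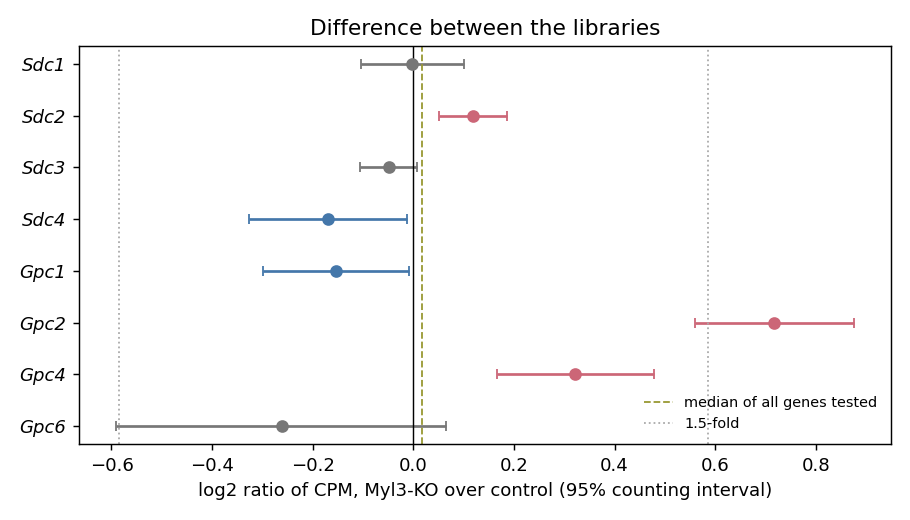
Log2 ratio of CPM, *Myl3*-KO over control, for the 8 detected members, with 95% Clopper-Pearson intervals (red higher, blue lower, grey within counting error), the median of all genes tested (dashed, 0.02) and the 1.5-fold limits (dotted). Only *Gpc2*, at 0.72, lies past a dotted line, and the interval of *Gpc2* reaches back to 0.56.

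Counts of one member against another within a library do not depend on how the libraries are scaled. Among close relatives, the ratio of *Gpc2* to *Gpc1* counts went from 0.628 in the control to 1.15 in *Myl3*-KO (odds ratio 1.83, exact conditional 95% interval 1.58 to 2.12). That of *Gpc4* to *Gpc6* went from 3.42 to 5.12 (odds ratio 1.497, interval 1.16 to 1.93). For the syndecans, that of *Sdc2* to *Sdc4* went from 4.90 to 5.99 (odds ratio 1.22, interval 1.08 to 1.38), and that of *Sdc1* to *Sdc3* from 0.308 to 0.318 (odds ratio 1.03, interval 0.952 to 1.12). The last of these intervals held 1 and the others did not, which is a description of the 4 pairs, since single genes often differed beyond counting error (22.2% higher and 20.1% lower) and no other gene pairs were examined. No ratio could be formed for *Gpc3* with *Gpc5*, or for the genomic neighbours *Gpc3* with *Gpc4* and *Gpc5* with *Gpc6*, because *Gpc3* and *Gpc5* were at 0.
Summed over each family, there were 0.196 glypican counts per syndecan count in the control and 0.229 in *Myl3*-KO (odds ratio 1.17, interval 1.10 to 1.248). Without *Gpc2*, a sum taken after the values were seen, the odds ratio was 1.02 (interval 0.946 to 1.10), so the shift between the families rested on *Gpc2*.

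**Figure D3:**
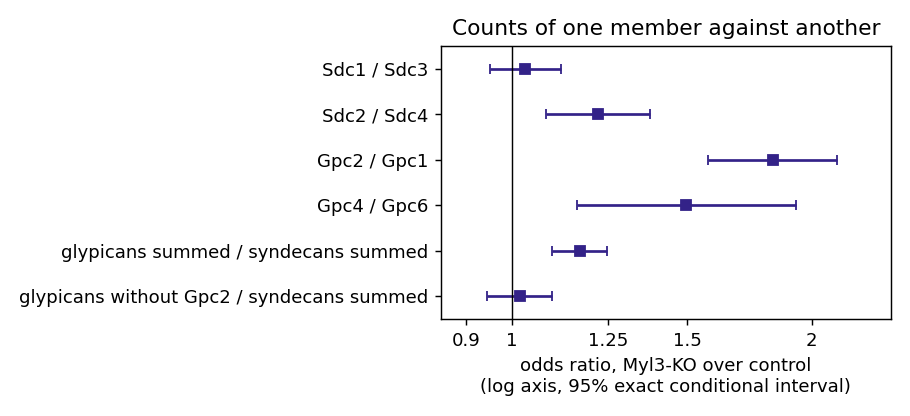
Odds ratio of the counts of one member or family to another, *Myl3*-KO over control, on a log axis with exact conditional 95% intervals. *Gpc2* to *Gpc1* is farthest from 1 at 1.83, and the summed glypicans to syndecans fall from 1.17 to 1.02 when *Gpc2* is left out.

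The lengths that the deposited FPKM values imply also bear on the members. For 6 of the 8 detected members they were the same in both libraries to within 0.001 kb, such as 2.59 kb for *Gpc2* and 2.65 kb for *Gpc4*. For *Gpc6* the implied length was 3.11 and 2.87 kb, and for *Sdc1* 2.78 and 2.74 kb. Both genes have protein-coding transcripts of unlike length in GENCODE M21, from 1668 to 3488 bases for *Gpc6* and from 638 to 3157 bases for *Sdc1*. Those of *Sdc3* also differ, from 644 to 4973 bases, and its implied length was 4.97 kb in both libraries. Which transcripts were in use was not tested. The log2 ratio of *Gpc6* was accordingly -0.15 from FPKM and -0.26 from counts, and that of *Sdc1* 0.02 and -0.00, all within counting error.

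The sequences before the RefSeq start sites of the glypicans with the largest ratios and of those at 0 counts are shown to let them be compared. RefSeq gave a start site on GRCm38.p6 for 7 of the 10 members, all but *Sdc2*, *Gpc1* and *Gpc6*. The start sites of RefSeq and the gene models of GENCODE M21 differ for some members. The RefSeq start is 329 bases downstream of the GENCODE start for *Gpc4*, 699 for *Sdc4*, 73 for *Sdc1* and 68 for *Gpc2*. Thus the windows of *Gpc4* and *Sdc4* lie wholly inside the GENCODE gene, those of *Sdc1* and *Gpc2* partly so, and those of *Gpc3*, *Gpc5* and *Sdc3* outside it. The 250 bases before the RefSeq start are printed on the strand of the gene, with the GC box GGGCGG and the TATA box TATAAA, on either strand, in capitals.
Gpc2, chr5:138279938-138280187, minus strand: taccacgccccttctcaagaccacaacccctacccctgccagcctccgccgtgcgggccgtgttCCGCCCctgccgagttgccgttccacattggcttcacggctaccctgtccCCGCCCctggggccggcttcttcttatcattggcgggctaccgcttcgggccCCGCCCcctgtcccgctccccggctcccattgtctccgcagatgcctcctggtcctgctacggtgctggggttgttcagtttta
Gpc4, chrX:52164924-52165173, minus strand: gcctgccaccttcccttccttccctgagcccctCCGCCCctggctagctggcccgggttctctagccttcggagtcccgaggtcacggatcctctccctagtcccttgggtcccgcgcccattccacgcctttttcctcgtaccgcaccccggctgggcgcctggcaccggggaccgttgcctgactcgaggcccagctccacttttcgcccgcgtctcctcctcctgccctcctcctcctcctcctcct
Gpc3, chrX:52613975-52614224, minus strand: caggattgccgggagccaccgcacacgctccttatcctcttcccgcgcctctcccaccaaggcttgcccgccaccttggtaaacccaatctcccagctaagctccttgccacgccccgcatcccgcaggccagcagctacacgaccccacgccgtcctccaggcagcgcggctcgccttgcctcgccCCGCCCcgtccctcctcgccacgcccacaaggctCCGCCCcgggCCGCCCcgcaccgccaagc
Gpc5, chr14:115091965-115092214, plus strand: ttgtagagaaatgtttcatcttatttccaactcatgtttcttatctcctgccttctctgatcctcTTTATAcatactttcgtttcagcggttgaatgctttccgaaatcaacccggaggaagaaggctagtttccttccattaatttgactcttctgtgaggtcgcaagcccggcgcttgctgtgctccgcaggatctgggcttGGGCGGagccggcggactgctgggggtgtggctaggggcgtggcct
A GC box was found in 7 of the 7 windows, against 32.7% of the 32851 windows of this length in the table. *Gpc2* and *Gpc3* had 3 each and *Gpc4* and *Gpc5* 1 each, so a GC box was in the windows of detected and undetected glypicans alike. TATAAA was found only in *Gpc5*, where it reads on the strand opposite to the gene, against 12.4% of all windows on either strand. The distance of a match from the start site was not considered. TGGGAA, the core bound by the Notch factor RBPJ, was in 0 of the 7 windows, against 21.6% of all. The GC content was 66.4% for *Gpc2*, 68.4% for *Gpc4* and 71.6% for *Gpc3*, but 51.2% for *Gpc5*, with a median of 52.4% over all windows. For the syndecans it was 66% for *Sdc1*, 76.4% for *Sdc3* and 68% for *Sdc4*. The GC box holds only G and C, and the shares over all windows were not matched for GC content.

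The genes that build, edit, anchor and use these proteoglycans were then set beside them, from lists chosen with earlier results of these data known. For each list the counts and the median log2 ratio are given as a description, to be read against 22.2% higher, 20.1% lower and a median of 0.02 over all genes tested. The shares were not matched for the counts of the listed genes. That balance turned with the scaling, to 19.3% higher, 23.4% lower and a median of -0.01 with TMM factors and to 19.5% higher, 23.0% lower and -0.01 with DESeq2 size factors. The lists were counted under these scalings after the data were seen, and changes are stated beside each.

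The first list holds other proteoglycans and receptors that can carry heparan sulfate. Of 7 genes, 6 were tested, 4 were higher beyond counting error and 0 were lower, with a median of 0.25. *Agrn*, which encodes agrin of basement membranes, had 339 and 328 counts (log2 ratio 0.34, 95% interval 0.11 to 0.56). *Col18a1*, the collagen that releases endostatin, had 231 and 226 (0.35, interval 0.08 to 0.63), and *Nrp1*, a VEGF and semaphorin receptor, 76 and 84 (0.53, interval 0.07 to 0.997). The fourth was *Hspg2* for perlecan, the large matrix proteoglycan, at 0.13. For *Col18a1* the deposited FPKM values, 5.59 and 6.31, gave a smaller ratio than its counts, and its call as higher is from counts only. Calls of the lists were not repeated from FPKM. *Srgn*, which encodes the proteoglycan of storage granules, had 0 counts.

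Of 27 genes for the synthesis of the heparan sulfate chain, 20 were tested, 5 were higher and 3 lower, with a median of 0.02. *Ext1* and *Ext2*, whose products polymerize the chain, were within counting error at log2 ratios of 0.00 and 0.03. The 3 genes of this list with the largest ratios beyond counting error encode sulfation enzymes, and they went either way. Of the other sulfation enzymes tested, *Ndst1* was higher at 0.12 and the rest were within counting error. *Ndst2*, an N-sulfotransferase, had 866 and 852 counts (log2 ratio 0.36, 95% interval 0.22 to 0.50). *Hs6st2*, a 6-O-sulfotransferase, had 1351 and 791 (-0.39, interval -0.51 to -0.26), and *Hs2st1*, the 2-O-sulfotransferase, 1281 and 834 (-0.23, interval -0.36 to -0.11). With TMM factors 2 genes of this list were higher and 3 lower, with a median of -0.01, since *Xylt2*, *Fam20b* and *Ndst1* were then within counting error, and with DESeq2 size factors 3 were higher and 3 lower. Of the 4 genes that edit finished chains, only *Sulf2* was tested. This 6-O-endosulfatase had 6196 and 4654 counts, a log2 ratio of -0.03 (interval -0.08 to 0.03), whereas its relative *Sulf1* had 1 and 0 counts and the heparanase gene *Hpse* 2 and 3.

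Among 10 partners of the syndecan tail, all tested, 3 were higher and 1 lower, with a median of 0.08. *Sdcbp*, which encodes syntenin, the PDZ protein of the site printed above, had 4543 and 3334 counts and was within counting error (log2 ratio -0.06, interval -0.13 to 0.00). The tyrosine kinase gene *Src* was at 0.23 (interval 0.10 to 0.37), the membrane linker gene *Ezr* at 0.14 (interval 0.01 to 0.28) and the Rac activator gene *Tiam1* at -0.22 (interval -0.44 to -0.00). With TMM or DESeq2 scaling *Sdcbp* was lower beyond counting error and *Ezr* was within it, which made 2 higher and 2 lower.

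Of 17 genes for shedding of the core proteins and processing of glypicans, 15 were tested, 5 were higher and 1 was lower, with a median of -0.03. The list holds both enzymes and inhibitors of metalloproteases, so its counts give no direction of shedding. Of the inhibitor genes, *Timp2* (log2 ratio 0.09) and *Timp3* (0.31) were among the 5 that were higher, and *Timp1* (-0.29) was the one that was lower. *Mmp14*, a membrane protease that sheds syndecan-1, had 4997 and 4834 counts (log2 ratio 0.34, interval 0.28 to 0.40). *Furin*, a convertase that cuts glypican precursors, had 1404 and 1344 (0.32, interval 0.21 to 0.43). *Gpld1*, a phospholipase that cuts GPI anchors, had 38.91 and 64.44 expected counts (1.11, interval 0.50 to 1.71). The sheddase genes *Adam10* (-0.04) and *Adam17* (-0.06) were within counting error, as was *Notum*, which releases glypicans and inactivates Wnt (-0.21, interval -0.87 to 0.43).

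The lists of FGF genes, hedgehog genes (ligands, receptors and targets) and other heparan sulfate-binding factors were mixed. Of 10 FGF ligands and receptors, 5 were tested, 2 were higher and 1 lower, with a median of 0.41. *Fgf7*, a ligand made by mesenchymal cells, had 301 and 411 counts (log2 ratio 0.84, interval 0.62 to 1.05). The receptor gene *Fgfr1* had 1544 and 1566 (0.41, interval 0.30 to 0.51) and *Fgfr2* 960.93 and 602 (-0.29, interval -0.44 to -0.14). *Fgf2*, the ligand best known to bind syndecans and *Gpc1*, had 15.85 and 19.94 expected counts and was within counting error.
Of 13 hedgehog genes, 8 were tested, 3 were higher and 1 lower, with a median of 0.01 (-0.02 with TMM and -0.01 with DESeq2 scaling, where *Cdon* made 2 lower). *Ihh*, the growth plate ligand, had 5 counts and 1 count, and *Shh* and *Dhh* had 0. The receptor gene *Ptch1* had 6642 and 5944 counts (0.23, interval 0.18 to 0.28), the repressor gene *Gli3* 1396 and 1222 (0.19, interval 0.08 to 0.31) and the co-receptor gene *Gas1* 25861 and 17696 (-0.16, interval -0.19 to -0.13).
Of 8 other heparan sulfate-binding factors, 6 were tested, 2 were higher and 2 lower, with a median of 0.20. *Ptn*, which encodes pleiotrophin, a ligand of syndecan-3, had 6150 and 3139 counts (-0.58, interval -0.65 to -0.52). *Pdgfa* was at 0.48 (interval 0.22 to 0.75) and *Hbegf* at 0.43 (interval 0.01 to 0.86). With TMM or DESeq2 scaling *Hbegf* was within counting error and *Cxcl12* was lower, which made 1 higher and 3 lower. *Ptn* thus stood beside *Sdc3*, whose own log2 ratio was -0.05.

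**Figure D4:**
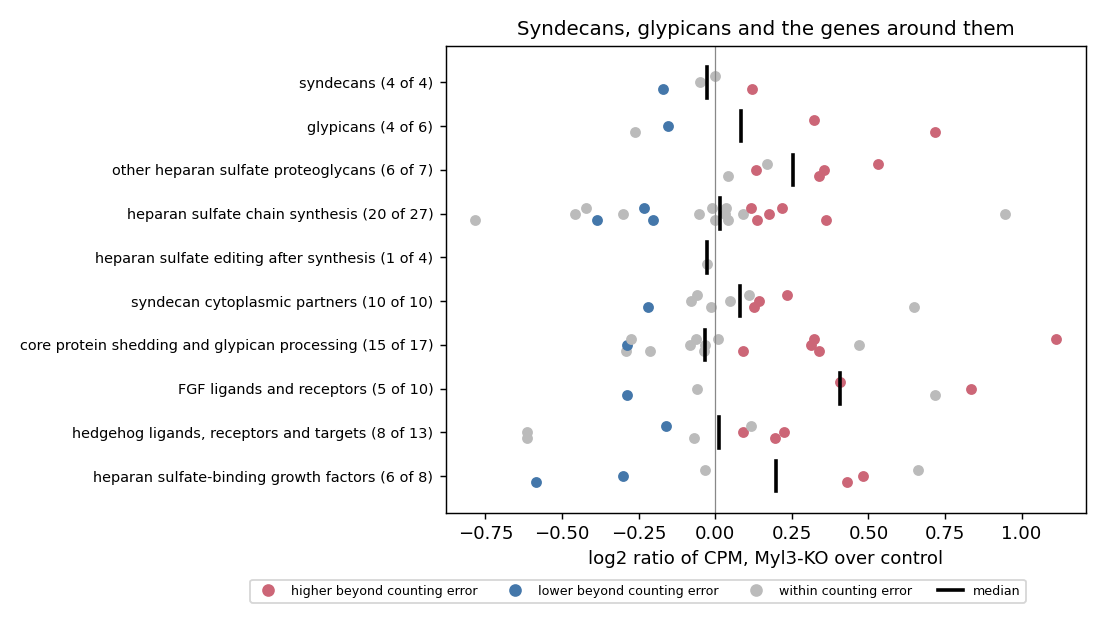
Log2 ratio of CPM, *Myl3*-KO over control, for the tested genes of each list (1 point per gene, red higher and blue lower beyond counting error, grey within it; black line, median; in brackets, genes tested of genes in the table). The syndecans span -0.17 to 0.12 and the glypicans -0.26 to 0.72, while *Gpld1* at 1.11 is the highest point and *Ptn* at -0.58 the lowest of the blue points.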

How the data were processed

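The authors isolated mRNA on oligo beads, made random-primed cDNA and sequenced it on an Illumina NovaSeq instrument, while the labels name a SMARTER kit. GRCm38 and mm10 appear in the submitters' processing notes. The aligner, counting tool and strand setting are not given in the sources used here. The authors deposited an expected count (estimated reads per gene, not normalized) and an FPKM value per gene and library. The NC column was read as the control because the other is headed KO.

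From these, CPM used library totals. Log2 ratios raised counts under 3 to 3 and were given for the 12431 genes whose 2 counts summed to 10 or more, which left out 9725. Intervals at 95% (Clopper-Pearson for ratios, Poisson for levels, exact conditional for odds ratios) used counts rounded to whole numbers and cover counting error only. Those for ratios were tried on simulated Poisson counts. Such counts hold only the error that the intervals assume, so the trial says nothing of other error. The quasi-likelihood test of edgeR and the test of DESeq2 need replicates within a genotype and were not used. Alternatives were TMM or DESeq2 scaling, FPKM ratios, 1 added count, other filters and fold limits (the scalings turned the balance of higher and lower genes overall), and the exact test of edgeR at preset coefficients of variation. Members and lists were chosen with earlier results of these data known. Named were all members and, per list, the 3 genes with the largest ratios beyond counting error among those with at least 50 counts, marker genes, and overlapping genes. Other genes (*Ext1*, *Ext2*, *Hspg2*, *Srgn*, *Sulf1*, *Sulf2*, *Hpse*, *Sdcbp*, *Adam10*, *Adam17*, *Notum*, *Fgf2*, *Ihh*, *Shh*, *Dhh*, *Gal3st4*, *BC037034*, *Lamtor4*, *Stag3*, *Timp1*, *Timp2*, *Timp3*, *Xylt2*, *Fam20b*, *Ndst1*, *Cdon*, *Cxcl12*) were chosen after their values were seen. No genes of like pattern were sought, since 2 libraries give 1 ratio per gene. Protein sequences were not analysed here. Gene positions and transcripts are from GENCODE M21 on GRCm38 and start sites from RefSeq on GRCm38.p6. Tools were Python 3.11.15, numpy 2.4.6, pandas 2.3.3, scipy 1.17.1, matplotlib 3.10.9, R 4.3.3, edgeR 4.0.16 and DESeq2 1.42.0.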

Additional observations from a re-analysis of the deposited data

How the results depend on the processing

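Counting error was the only error these libraries could give, and the calls on the members depended on that. With a coefficient of variation between cultures preset to 0.1 in edgeR's exact test, 1 member was higher (*Gpc2*) and 0 were lower at an unadjusted p under 0.05, in place of 3 and 2. With 0.2 or 0.4 the numbers were 0 higher and 0 lower. At a limit of 2-fold, 0 members were higher in place of 1. For the preset variation and the 2-fold limit the shares over all genes tested were not taken. These numbers therefore describe the members only. The glypican to syndecan odds ratio of 1.17 became 1.02 without *Gpc2*. Under TMM or DESeq2 scaling, FPKM ratios, 1 added count and the other filters, the members called higher and lower kept their calls, and the only added call was *Sdc3*, lower at -0.08 with TMM and -0.07 with DESeq2 scaling. The median log2 ratio lay between -0.05 and -0.02 for the syndecans and between 0.06 and 0.09 for the glypicans. No paired analysis was possible because each genotype has 1 library.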
